A study of Mus musculus with 36 samples.

Results

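Myh7, Myh6, Acta1 and Nppb are 4 of the 12393 genes measured on 36 arrays of mouse left ventricle, and were taken as the ventricular members of the fetal gene programme. The members were the probe sets whose annotation gave 1 of these 4 symbols and no other, which left 5 of the 20380 probe sets with a single gene symbol: 1 each for Myh7, Acta1 and Nppb, and 2 for Myh6. A further 2 probe sets are annotated to Myh7 and Myh6 together, and were kept apart as shared. The TAC group had its aorta narrowed by transverse aortic constriction, a surgical model of pressure overload, and the SHAM group had the sham operation. Hearts of both groups were taken 8 weeks after surgery at ZT03, ZT07, ZT11, ZT15, ZT19 and ZT23, hours of zeitgeber time, the clock set by the light schedule. There were 3 mice per surgery and time, so 18 TAC and 18 SHAM arrays, each hybridised with biotin-labelled RNA made from 6 ug of total RNA. Strain, sex, age and the degree of constriction are not stated in the labels.

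The heart of a mouse embryo builds its ventricle with beta-myosin heavy chain, the product of Myh7, and the adult mouse ventricle runs mostly on the faster alpha-myosin heavy chain of Myh6. Under pressure overload the adult muscle is known to turn genes of the fetal ventricle back on. Among them are Myh7, Acta1, which encodes the skeletal muscle form of alpha-actin, and Nppb, which encodes B-type natriuretic peptide, a hormone that the stretched myocardium secretes.

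The deposited values are relative: every probe set has a median of 0 within TAC and a median of 0 within SHAM. Whether a gene was expressed more after TAC than after SHAM therefore cannot be read from them, and neither can the level of any cell type's markers. What can be read is how each member varied over the day, how far mice of the same surgery and time differed, and which members varied together. Values are given in log2 units, 1 unit being a doubling, on the assumption of base 2 explained with the processing.

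Myh7 and Myh6 lie side by side on chromosome 14, at 54970684 to 54994626 and 54941921 to 54968017 in the RefSeq annotation of GRCm38.p6. Acta1 lies on chromosome 8 at 123891758 to 123894775, and Nppb on chromosome 4 at 147985786 to 147987205. The stretch around 1 RefSeq transcription start of each gene, 250 bases before it and 50 after, is shown because the members are compared below for varying together. It is printed 5′ to 3′ on the gene's own strand, as RefSeq gives it for GRCm38.p6. The capitals mark every match, on either strand, to the motifs searched. These were MCAT, spelled CATTCC, to which TEAD factors bind, the site of GATA factors, GATAA, the CArG box, to which serum response factor binds, the E-box of the circadian clock, CACGTG, and the TATA box, TATAAA.
Myh7, chr14:54994577-54994876, minus strand: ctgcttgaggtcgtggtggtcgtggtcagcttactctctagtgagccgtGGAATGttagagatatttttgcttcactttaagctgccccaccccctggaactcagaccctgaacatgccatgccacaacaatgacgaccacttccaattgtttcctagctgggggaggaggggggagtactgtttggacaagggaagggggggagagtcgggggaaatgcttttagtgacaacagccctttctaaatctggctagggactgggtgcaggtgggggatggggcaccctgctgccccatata
Myh6, chr14:54966558-54966857, minus strand: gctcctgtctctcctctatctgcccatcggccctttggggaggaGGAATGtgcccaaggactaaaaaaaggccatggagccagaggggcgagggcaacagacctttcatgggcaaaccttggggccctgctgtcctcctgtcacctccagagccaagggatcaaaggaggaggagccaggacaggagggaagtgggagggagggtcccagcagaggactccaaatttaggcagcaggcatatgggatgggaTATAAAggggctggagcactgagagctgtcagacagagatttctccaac
Acta1, chr8:123894726-123895025, minus strand: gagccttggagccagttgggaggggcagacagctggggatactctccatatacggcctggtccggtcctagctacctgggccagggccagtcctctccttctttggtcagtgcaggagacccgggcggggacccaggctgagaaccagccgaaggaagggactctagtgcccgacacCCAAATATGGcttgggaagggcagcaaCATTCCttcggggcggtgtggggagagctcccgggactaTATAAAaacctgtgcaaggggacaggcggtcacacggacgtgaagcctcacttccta
Nppb, chr4:147985650-147985949, plus strand: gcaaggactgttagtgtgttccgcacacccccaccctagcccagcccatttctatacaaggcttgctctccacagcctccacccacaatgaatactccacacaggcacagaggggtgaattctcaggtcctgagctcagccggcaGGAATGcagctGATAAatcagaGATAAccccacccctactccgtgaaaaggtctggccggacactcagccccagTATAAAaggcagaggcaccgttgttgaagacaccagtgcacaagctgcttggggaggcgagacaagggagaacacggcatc

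All 4 windows held the MCAT letters, which 14.66% of 32851 RefSeq promoter windows of this length hold. The match lay 201 to 196 bases before the start in Myh7, 206 to 201 in Myh6, 46 to 41 in Acta1 and 105 to 100 in Nppb. A second RefSeq start of Myh7 has an overlapping window, chr14:54994500-54994799, in which none of the motifs was found. Nppb held GATA at 2 places, at 94 to 90 and 83 to 79 bases before the start (25.41% of windows hold it), and Acta1 held a CArG box at 73 to 64 bases before it (1.63%). TATAAA was found in Myh6, Acta1 and Nppb (13.62%), and CACGTG in none of the windows (7.15%). The TATAAA letters lay 7 to 2 bases before the start in Acta1 and 31 to 26 before it in Nppb. In Myh6 they did not precede the start used here, and lay at bases 2 to 7 counted from it. These matches describe the letters only.

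The mice differed most in Myh7 after TAC. Its values there ran over 3.58 log2 units, an 11.9-fold difference between the highest and the lowest array, against 1.62-fold over the SHAM arrays. In TAC hearts Myh7 was -1.70, -0.54 and 0.32 at ZT03, 0.41, 0.28 and -0.17 at ZT07, and -0.32, 1.17 and 0.75 at ZT11. It was -0.30, -0.28 and -1.95 at ZT15, 0.17, -1.44 and -1.31 at ZT19, and 1.54, 1.62 and 0.96 at ZT23. At 4 of the times, ZT03, ZT11, ZT15 and ZT19, mice killed at the same hour thus lay more than 1 unit apart, whereas the 3 TAC hearts of ZT23 were all high. In SHAM hearts Myh7 was -0.0038, -0.12 and -0.08 at ZT03, 0.24, 0.32 and 0.31 at ZT07, and -0.01, 0.21 and 0.0038 at ZT11. It was 0.20, 0.04 and 0.10 at ZT15, 0.04, -0.10 and -0.37 at ZT19, and -0.02, -0.28 and -0.04 at ZT23. The SHAM hearts of 1 time lay close together, and the 3 of ZT07 stood above every other SHAM heart. How many of all genes have 1 SHAM time so set apart was not counted.

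**Figure D1:**
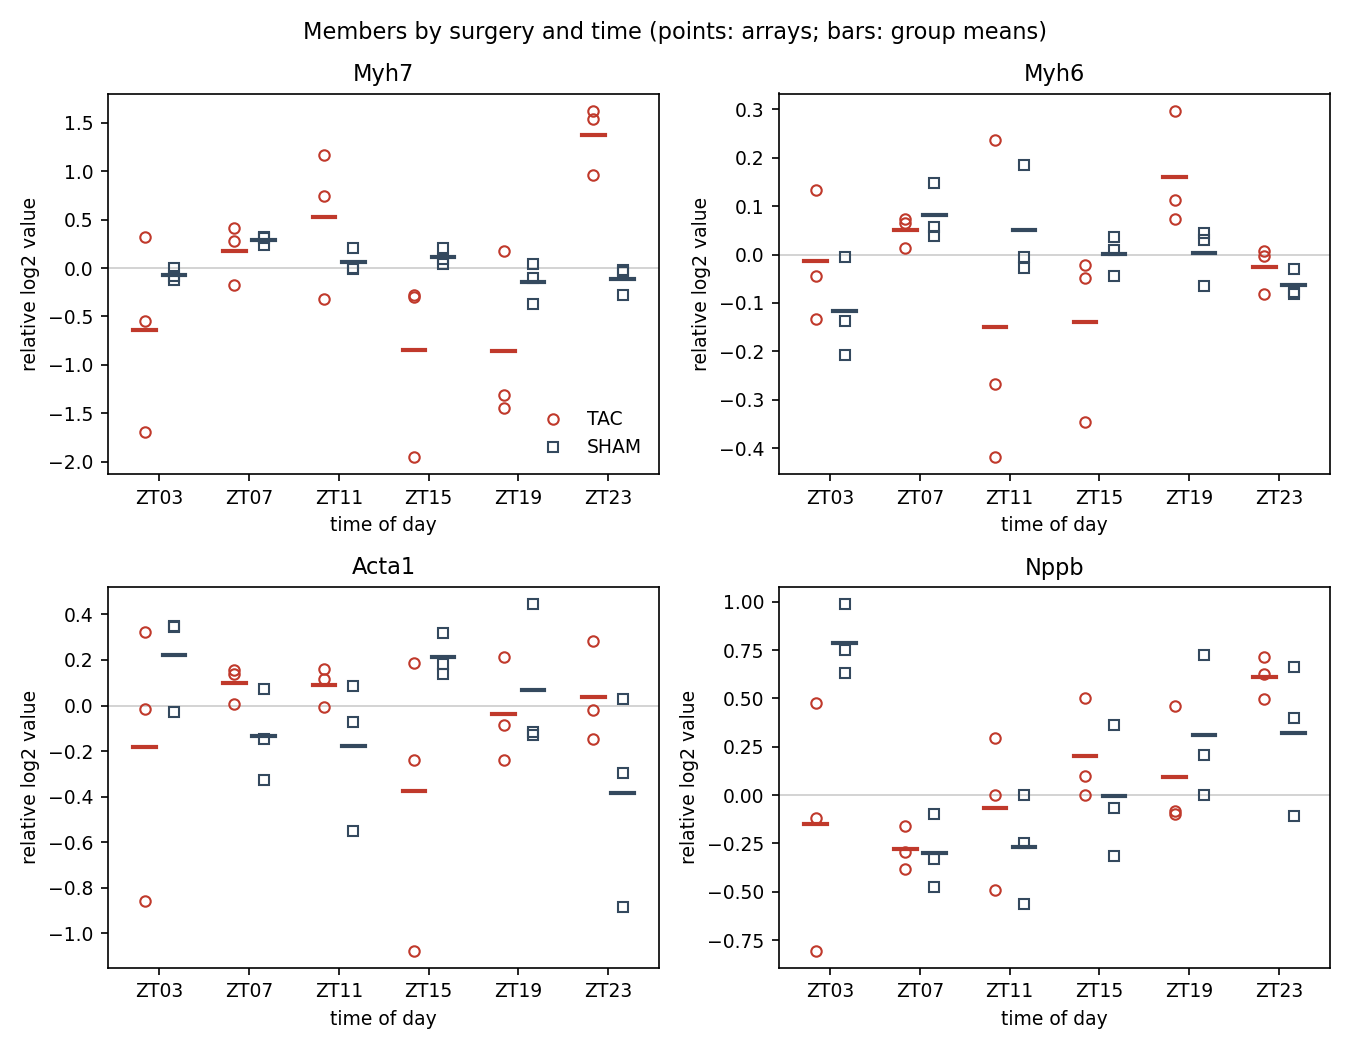
Relative log2 value of Myh7, Myh6 (mean of its 2 probe sets), Acta1 and Nppb in each TAC (red circles, left) and SHAM (dark squares, right) heart at 6 times of day, with bars at the means of 3 mice. Each surgery is centred on its own median, so the height of red against dark points is no difference in level, and the vertical scale differs between panels. Myh7 after TAC runs between -1.95 and 1.62, and after SHAM between -0.37 and 0.32.

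The SD of Myh7 between mice of the same time was 0.770 in TAC and 0.125 in SHAM, a ratio of 6.18, and it was higher in TAC at 6 of 6 times. The lowest SD of a TAC group, 0.309, lay above the highest of a SHAM group, 0.211, so the groups did not overlap in this measure. How many of all genes separate in this way was not counted. Absolute deviations from the group mean differed between TAC and SHAM (limma, adjusted p = 0.00304 over all genes). That test called 1.61% of all genes, 194 of 199 with more spread in TAC, and the SD was higher in TAC for 71.9% of all genes. Deviations of 3 mice around their own mean are not independent, so a test on single arrays can call too many genes. With 1 mean deviation per group of mice, limma gave Myh7 an unadjusted p of 6.9e-05 and an adjusted p of 0.0990, and called 2 genes in all (0.0161%). An F-test of the variances, which rests on normal errors, gave Myh7 an adjusted p of 1.88e-04, with 1.82% of genes called higher in TAC.

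Myh6 had an SD of 0.176 in TAC and 0.0750 in SHAM, a ratio of 2.35 with the TAC value higher at 5 of 6 times, and did not pass (limma, adjusted p = 0.180). Acta1 had 0.387 in TAC and 0.296 in SHAM, higher in TAC at 2 of 6 times (adjusted p = 0.830). Nppb had 0.357 in TAC and 0.306 in SHAM, also higher in TAC at 2 of 6 times (adjusted p = 0.948). So 1 of the 4 members passed the test of spread. For Acta1 and Nppb the ratio turned to below 1 after quantile normalization between arrays, at -0.44 and -0.52 on the log2 scale against 0.39 and 0.23 as deposited.

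**Figure D2:**
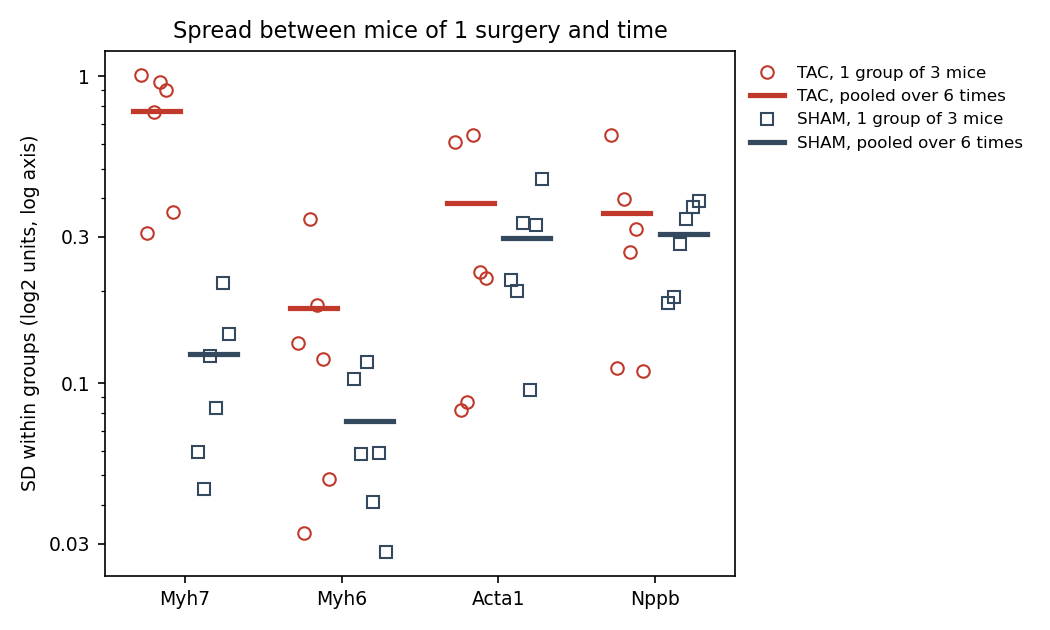
SD between the 3 mice of a surgery and time (log axis, log2 units) for each member, with TAC as red circles on the left and SHAM as dark squares on the right; bars are the SDs pooled over 6 times. The 6 TAC groups lie above the 6 SHAM groups for Myh7, and the groups overlap for Myh6, Acta1 and Nppb.

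Time of day was tested within each surgery on its own 18 arrays. In TAC hearts none of the 4 members passed, with adjusted p-values of 0.154 for Myh7, 0.363 for Nppb, 0.619 for Myh6 and 0.792 for Acta1 (limma, 5 degrees of freedom). The same test called 0.549% of all genes in TAC. The unadjusted p was below 0.05 for Myh7 (0.00326) and Nppb (0.0345), as it was for 12.4% of genes. The order of the Myh7 group means in TAC was ZT23 at 1.38 ± 0.36, ZT11 at 0.53 ± 0.77, ZT07 at 0.17 ± 0.31, ZT03 at -0.64 ± 1.01, ZT15 at -0.84 ± 0.96 and ZT19 at -0.86 ± 0.90 (SD, n = 3 each). The ranges of neighbours in that order overlapped throughout.

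In SHAM hearts Myh7 and Nppb passed, with adjusted p = 0.0320 and 0.0186, and Myh6 and Acta1 did not, with 0.265 and 0.287 (limma). The test called 5.69% of all genes in SHAM. Myh7 was highest in SHAM at ZT07, 0.29 ± 0.05, and lowest at ZT19, -0.14 ± 0.21 (SD, n = 3 each), a span of 0.44 log2 units. ZT07 and the next highest time, ZT15 at 0.11 ± 0.08, were the neighbours whose ranges did not overlap. The share of all genes with such a gap was not counted. A 24-h cosine fitted to SHAM Myh7 had an amplitude of 0.18 ± 0.04 (SE) and a peak at ZT 9.37 ± 0.93 h (adjusted p = 0.0309). The cosine test called 9.41% of all genes in SHAM.

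Nppb had its highest mean at ZT23 in TAC, as Myh7 did, and at ZT03 in SHAM, where that of Myh7 was at ZT07. In TAC hearts Nppb was -0.80, -0.12 and 0.48 at ZT03, -0.38, -0.16 and -0.29 at ZT07, and -0.49, 0.30 and -0.0019 at ZT11. It was 0.50, 0.10 and 0.0019 at ZT15, 0.46, -0.10 and -0.08 at ZT19, and 0.71, 0.50 and 0.62 at ZT23. The TAC hearts of ZT23 were all high and those of ZT07 all low, and ZT03 held both the lowest heart of all and a high one. In SHAM hearts it was 0.63, 0.75 and 0.99 at ZT03, -0.47, -0.10 and -0.33 at ZT07, and 0.0009, -0.25 and -0.56 at ZT11. It was 0.36, -0.31 and -0.07 at ZT15, 0.21, 0.73 and -0.0009 at ZT19, and 0.66, -0.11 and 0.40 at ZT23. The SHAM hearts of ZT03 were all high, with a mean of 0.79 ± 0.18, and those of ZT07 all low, -0.30 ± 0.19 (SD, n = 3 each), without overlap between these times. The share of all genes without overlap between ZT03 and ZT07 was not counted. The cosine for Nppb in TAC had an amplitude of 0.31 ± 0.11 (SE) and a peak at ZT 20.2 ± 1.38 h, and did not pass (adjusted p = 0.340). In SHAM it had an amplitude of 0.43 ± 0.11 and a peak at ZT 23.5 ± 0.95 h (adjusted p = 0.0341). The cosine test called 1.15% of genes in TAC, and no member.

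The difference between the TAC and the SHAM time courses was tested for each member and did not pass for any (limma, adjusted p = 0.336 for Myh7, 0.642 for Nppb, 0.903 for Acta1 and 1 for Myh6). With array weights, whose estimate did not converge on these arrays, it passed for Myh7 (3.54e-04), Myh6 (0.00162) and Nppb (0.0114). With these weights the difference was called for 2005 of the 12393 genes, and without them for 0.0161%. For the 24-h rhythm the adjusted p of the difference lay between 0.825 and 0.947, with 0.0484% of genes called. The calls for Myh7 depended on which arrays supplied the spread. With 1 spread estimated over both surgeries, Myh7 passed in TAC (adjusted p = 0.00261) and not in SHAM (0.981), the reverse of the fits within each surgery, and its SD differed 6.18-fold between them. That fit called 5.26% of genes in TAC and 3.37% in SHAM, and left Nppb passing in SHAM (0.0373). The SHAM calls were close to the threshold: Myh7 lost its time course without any 1 of the ZT07 arrays (adjusted p of 0.0731 to 0.114), and without ZT03 replicate 2 or 3, ZT15 replicate 3 or ZT19 replicate 2 (0.0526 to 0.0563). Nppb lost it without ZT03 replicate 2 (0.0539) or replicate 3 (0.0725). Without all arrays of replicate 1, 2 or 3, the time course passed for neither. The adjusted p was then 0.0574, 0.451 and 0.218 for Myh7, and 0.0539, 0.0608 and 0.302 for Nppb (limma). The SHAM rhythm was lost in 9 of 21 fits with arrays left out for Myh7 (adjusted p of 0.0528 to 0.462) and in 11 of 21 for Nppb (0.0505 to 0.193). The fits without all arrays of replicate 2 gave 0.462 for Myh7 and 0.151 for Nppb.

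Markers of other cells moved over the same SHAM arrays. The mean of 9 atrial cardiomyocyte markers ranged between -0.847 and 0.480 in TAC, and between -0.773, at ZT07 replicate 2, and 0.252 in SHAM. The mean of 8 white adipocyte markers ranged between -0.610 and 1.53 in TAC, and between -0.649 and 1.65 in SHAM. With both means as covariates, the SHAM time courses of Myh7 and Nppb did not pass (limma, adjusted p = 0.232 and 0.218). Their SHAM 24-h rhythms did not pass either (limma, adjusted p = 0.183 and 0.0827). The amplitudes were 0.153 and 0.321, against 0.179 and 0.434 without covariates. The part of these cells in the SHAM time courses was not tested. With the mean of 10 activated fibroblast markers as covariate, these time courses did not pass either, at 0.0635 and 0.138, while that of Nppb in TAC did (0.0155).

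Within TAC hearts, Myh7 was correlated with Nppb. Over all 18 TAC arrays the correlation was r = 0.61 (Spearman's rho = 0.54; permutation test, adjusted p = 0.0330 over 12 relations among the members). After removing the group means it was r = 0.84 (rho = 0.80; permutation within times, adjusted p = 0.0354), so a TAC mouse above its time's mean in Myh7 tended to lie above it in Nppb. By rank neither passed (Spearman, permutation test, adjusted p = 0.0581 for values and 0.0659 for deviations). Of all other genes, 8.33% had values and 0.525% had deviations correlated as strongly with those of Myh7 in either direction. With those of Nppb the shares were 5.27% and 0.403%. Leaving out the 2 TAC hearts farthest in Myh7, ZT03 replicate 1 and ZT15 replicate 3, gave r = 0.55 for values and 0.82 for deviations. The call for values ended without ZT03 replicate 1 (adjusted p = 0.109) or any ZT23 array (0.0642 to 0.0772), and that for deviations without any array of ZT03, ZT11 or ZT19 (0.106 to 0.231). Both calls also ended without all arrays of replicate 1, 2 or 3. The adjusted permutation p was then 0.138, 0.181 and 0.0652 for values, and 0.629, 0.570 and 0.472 for deviations. Without the 4 arrays that stood apart in airway or thymocyte markers, neither passed. In SHAM the same pair had r = -0.36 for values (adjusted p = 0.208) and 0.53 for deviations (0.288).

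Myh7 and Acta1 had r = 0.63 over the 18 TAC arrays (permutation test, adjusted p = 0.0236), and 7.17% of all genes lay as far from 0 with Myh7. By rank the pair did not pass (rho = 0.40, adjusted p = 0.151). This relation rested on 2 hearts: without ZT03 replicate 1 and ZT15 replicate 3, in which Acta1 was -0.86 and -1.07, r was 0.22. The other 16 TAC hearts had Acta1 between -0.24 and 0.32. Acta1 was also below -0.5 in 2 SHAM hearts, at -0.55 in ZT11 replicate 1 and -0.89 in ZT23 replicate 2. The deviations of Myh7 and Acta1 (r = 0.69) and of Acta1 and Nppb (r = 0.67) in TAC had the same adjusted permutation p, 0.156. In SHAM these pairs had r = 0.38 and 0.40, with adjusted p-values of 0.387 and 0.374.

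By Pearson's r, 1 pair passed in SHAM. Myh6 and Nppb had r = -0.37 in TAC (permutation test, adjusted p = 0.208), and r = -0.67 in SHAM (rho = -0.62; adjusted p = 0.0214, by rank 0.0411). After removing the group means it was -0.55 in TAC and -0.26 in SHAM, and neither passed (adjusted p = 0.236 and 0.389). In SHAM, 1.73% of all other genes had values as far from 0 with Myh6, and 2.47% with Nppb. The SHAM call ended without ZT03 replicate 3 (adjusted p = 0.0621), or without all arrays of replicate 2 (0.0937) or 3 (0.0536). By rank a second pair passed in SHAM, Myh7 and Myh6, with r = 0.53 (permutation test, adjusted p = 0.0711) and rho = 0.68 (0.0314), and in TAC it had r = -0.30 (0.279) and rho = -0.41 (0.151). For none of the 6 pairs did the correlation of deviations differ between TAC and SHAM by a permutation test (adjusted p = 0.298 for each). The largest difference was that of Myh7 and Myh6, r = -0.39 in TAC and 0.26 in SHAM (unadjusted p = 0.121).

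Myh6 is known to fall as Myh7 rises in rodent hypertrophy. Whether the genes opposed each other here depended on the probe set, and on whether TAC ZT15 replicate 3 was included. The probe set 1448826_at opposed Myh7 in TAC, with r = -0.78 (rho = -0.74; permutation test, adjusted p = 0.00168 over 42 relations between probe sets), and -0.86 after removing the group means (0.0181). The probe set 1417729_at had r = -0.08 with Myh7 in TAC (adjusted p = 0.815). In SHAM they had r = 0.24 and 0.49 with Myh7, and neither passed (0.481 and 0.112). The 2 Myh6 probe sets had r = 0.30 with each other in TAC and 0.07 in SHAM.

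In TAC they parted most in 1 heart. In ZT15 replicate 3 the probe set 1417729_at stood at -0.88, its lowest TAC value, and 1448826_at at 0.19, its highest. Without that heart the 2 probe sets had r = 0.86 in TAC, and 1417729_at had r = -0.55 with Myh7 (chosen after seeing the data, unadjusted permutation p = 0.0206). The mean of both then had r = -0.62 with Myh7 for values (permutation test, adjusted p = 0.0286) and -0.77 for deviations (0.00552). Its difference in r of deviations, TAC minus SHAM, was then -1.03 and passed (permutation test, adjusted p = 0.0344). That heart was likewise singled out after seeing the data. The shared probe sets parted in the same heart, 1448827_s_at at -1.11 and 1448554_s_at at 0.07. The probe sets 1417729_at and 1448827_s_at had r = 0.91 in TAC and 0.82 in SHAM, and 1448826_at and 1448554_s_at had 0.72 and 0.76, all 4 passing (adjusted p of 0.00084 to 0.00697). The same heart had the lowest Myh7 and Acta1 of all TAC hearts and the highest 3′ minus 5′ difference of the Gapdh control probe sets among the 18 TAC arrays, which ranged between -0.106 and 0.168. The same difference of the Actb control was 0.0139 in that heart, against a TAC median of 0.0371 and a TAC range of -0.538 to 0.231. Neither control's difference passed with any member in TAC by permutation test. The lowest adjusted p was 0.194, for Gapdh with Acta1 (r = -0.54). The part of RNA quality in the values of this heart was not tested. In amount, 1448826_at moved little: its TAC hearts spanned 1.35-fold, against 11.9-fold for Myh7.

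**Figure D3:**
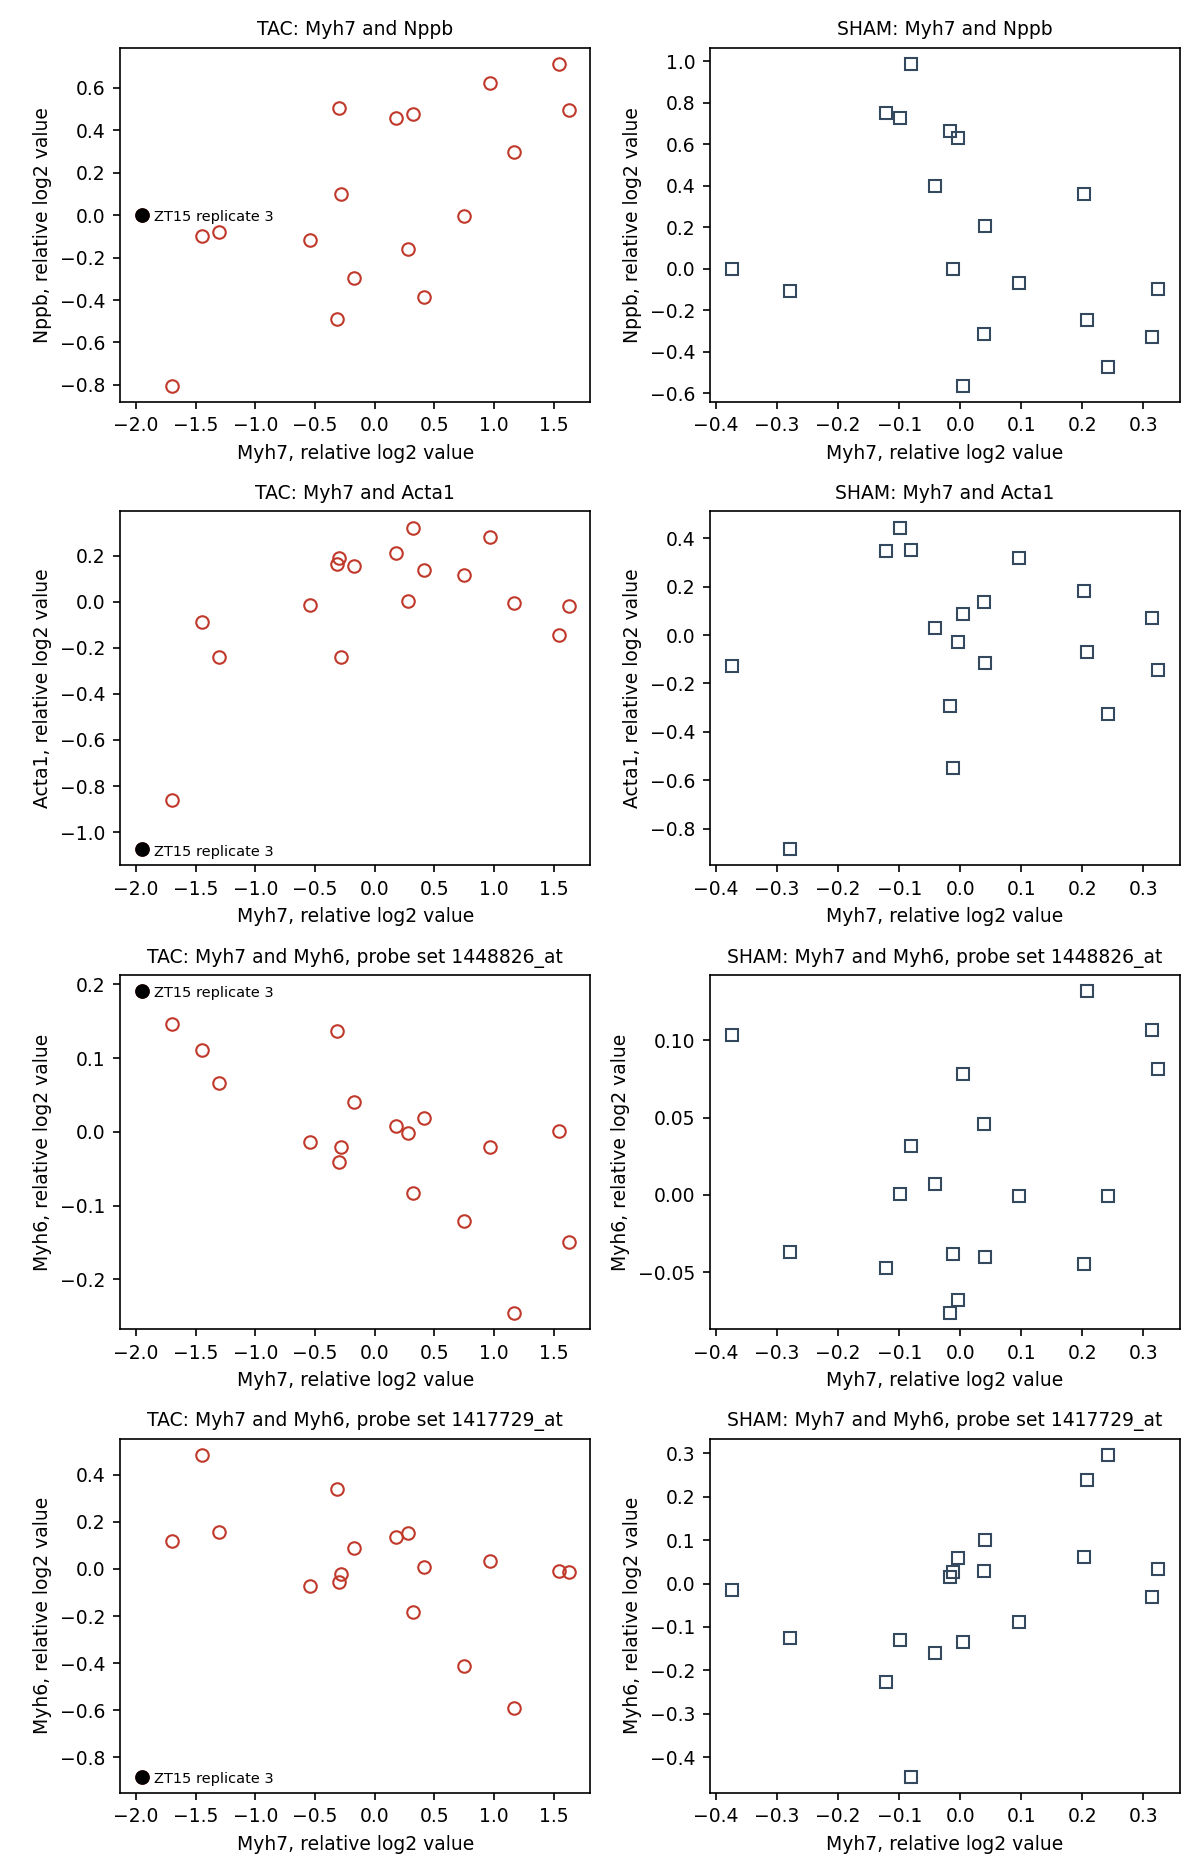
Relative log2 value of Myh7 (horizontal) against Nppb, Acta1 and the 2 Myh6 probe sets (vertical), 1 point per heart, with 18 TAC hearts on the left and 18 SHAM hearts on the right; scales differ between panels. The TAC heart of ZT15 replicate 3 is filled black. In TAC, Nppb goes up with Myh7 (r = 0.61), probe set 1448826_at goes down (r = -0.78), and the r of 0.63 with Acta1 rests on 2 hearts at the lower left.

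Myh7 in TAC hearts ran alongside genes of the fibrotic response. The mean of 10 activated fibroblast markers, among them Postn, which encodes periostin, had r = 0.93 with Myh7 over the 18 TAC arrays (rho = 0.94; permutation test, adjusted p = 0.0006 over 120 relations between marker means and members). In SHAM it had r = -0.23 (adjusted p = 0.588), and the difference between the surgeries was not tested. After removing the group means r was 0.86 in TAC (permutation within times, adjusted p = 0.1305) and 0.0061 in SHAM, and neither passed. The marker mean ranged between -0.662 and 1.04 in TAC, and between -0.101 and 0.203 in SHAM. Markers of fibroblasts in general, 10 of 10 measured, had r = 0.89 with Myh7 in TAC (adjusted p = 0.0006). The marker lists were chosen with earlier results of these data known. Their permutation p-values take the lists as fixed beforehand, so they cannot serve as independent support. Postn by itself had r = 0.96 with Myh7 in TAC. In bulk tissue more cells of a type and more RNA per cell cannot be told apart, and the part of these cells in the spread of Myh7 was not tested.

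Nppb followed the activated fibroblast markers in both surgeries, with r = 0.67 in TAC (adjusted p = 0.0400) and 0.67 in SHAM (0.0257), but not by rank (Spearman, permutation test, adjusted p = 0.107 and 0.0581). Without the 2 hearts farthest in the marker mean, r was 0.68 in TAC and 0.43 in SHAM. In SHAM, Nppb also had r = 0.81 with the fibroblast markers and 0.69 with endothelial markers, and Myh6 had r = -0.81 with the fibroblast and -0.82 with the activated fibroblast markers (permutation tests, adjusted p = 0.0018, 0.0257, 0.0012 and 0.0018). By rank the endothelial relation did not pass (0.0528). Myh6 in TAC had r = 0.83 with the mean of 10 ventricular cardiomyocyte markers (0.0018, by rank 0.0637). None of these marker relations passed after the group means were removed, the lowest adjusted p being 0.0576, for Nppb in TAC with r = 0.90. Acta1 passed with no marker list. Skeletal muscle markers, 12 of 14 measured, ranged between -0.130 and 0.0649 in TAC and between -0.0871 and 0.0845 in SHAM, and had r = -0.23 and 0.39 with Acta1 (adjusted p = 0.584 and 0.399).

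**Figure D4:**
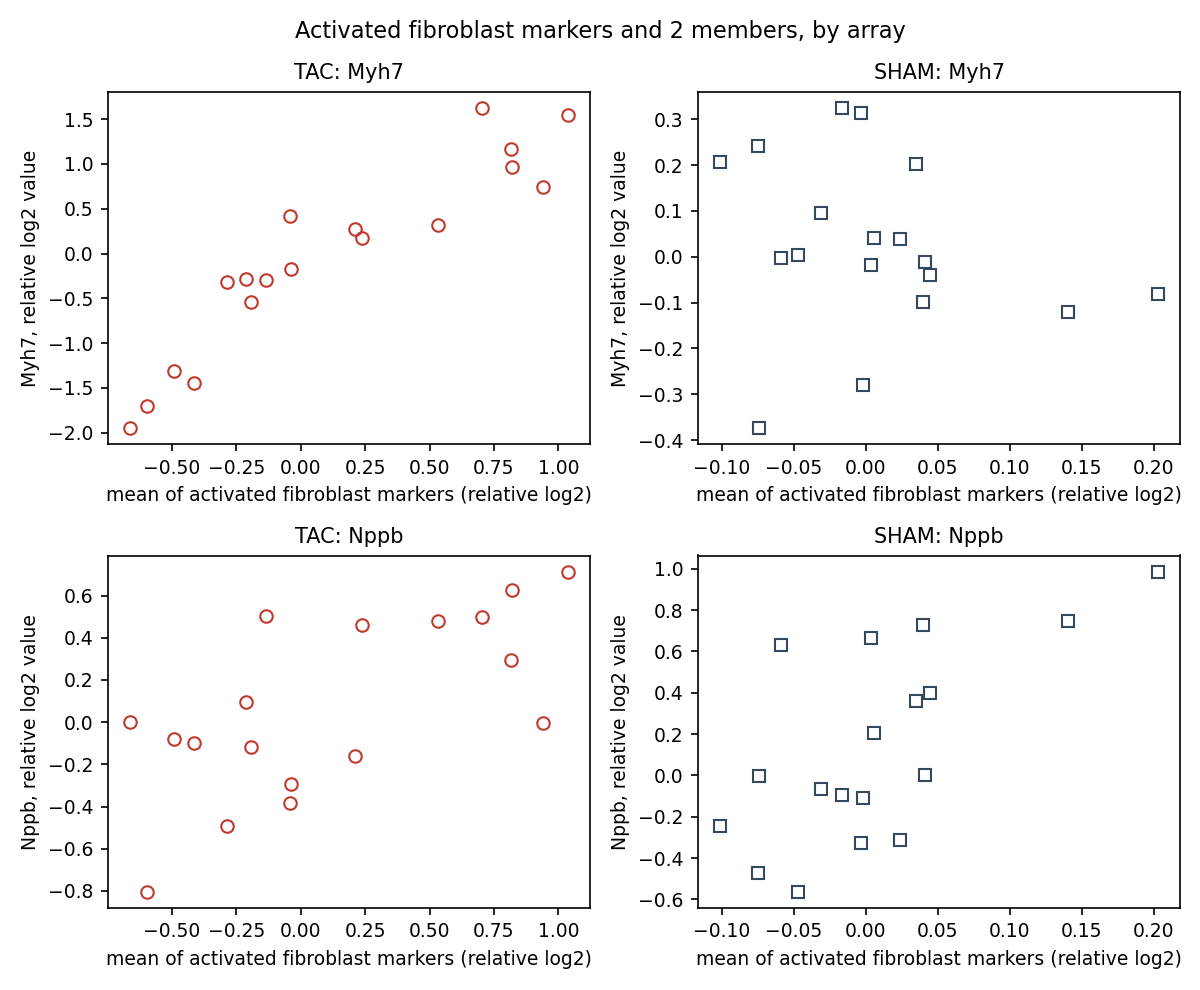
Relative log2 value of Myh7 (top) and Nppb (bottom) against the mean relative log2 value of 10 activated fibroblast markers, 1 point per heart, with TAC on the left and SHAM on the right; scales differ between panels. Myh7 rises along the markers over the 18 TAC hearts (r = 0.93), and over the SHAM hearts r is -0.23, a difference that was not tested. Nppb goes up with the markers in both (r = 0.67 each).

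The genes whose values over the 18 TAC hearts were most like those of Myh7 were Postn (r = 0.96), Fxyd6, Itgbl1, Prkar1a and Fstl1 (0.94 to 0.95). Postn spanned -1.53 to 1.44 over these hearts. The most opposed were Hhatl, Dglucy and Rilpl1 (r of -0.92 to -0.91). Nppb was most like Ppp1r3c (0.93), a glycogen-targeting subunit of protein phosphatase, Pmepa1, Rasl11b, Septin2 and Capza1 (0.85 to 0.90), and most opposed to Synj2, Igtp and Cmtm8 (-0.87 to -0.84). Acta1 was most like Nrap (0.84), a protein of myofibril assembly, Pura, Lamc1, Il6st and Itga9 (0.81 to 0.83), and most opposed to Cox5b, Vmn1r50 and Elk4 (-0.83 to -0.81). Myh6 was most like Ctcf (0.83), Snrpd3, Ift172, Cox7a1 and Atp5b (0.78 to 0.80), and most opposed to Mis18a, Ntng2 and Hoxb6 (-0.83 to -0.76). In SHAM the nearest were Tcta (0.87), Dab2ip and Agrn for Myh7, Plin4 (0.86), Dcaf8 and Tmem100 for Myh6, Dpagt1 (0.74), Pgam2 and Entpd1 for Acta1, and Meox1 (0.91), Gfpt2 and Cd93 for Nppb. Postn and Meox1 are also among the activated fibroblast markers. These r are descriptions, picked as the extremes of 12393 genes.

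Further genes of the response to load were read from 6 lists. Over all genes the time course passed for 0.549% in TAC and 5.69% in SHAM, the SHAM cosine for 9.41% and the spread test for 1.61%. At an unadjusted p under 0.05 the shares of all genes were 12.4% for the time course in TAC, 18.7% for that in SHAM and 18.9% for the spread. Of 27 other fetal and hypertrophy genes measured, the time course passed for 3 in TAC: Xirp1, which encodes a repeat protein of the intercalated disc, and the atrial light chains Myl4 and Myl7. Myl7 was 0.60 ± 0.49 at ZT19 and -2.27 ± 0.84 at ZT23 in TAC (SD, n = 3 each; limma, adjusted p = 0.0101), when Myh7 was at its lowest and highest, and their r was -0.74. Myl4 and Myl7 are also among the 9 atrial cardiomyocyte markers, whose mean in TAC was likewise highest at ZT19, 0.24 ± 0.26, and lowest at ZT23, -0.62 ± 0.34 (SD, n = 3 each). Nppa, which encodes atrial natriuretic peptide and is another of these markers, went the other way. Its highest TAC mean was at ZT23, 0.33 ± 0.11 (SD, n = 3), and its r with Myh7 was 0.79. The part of atrial tissue in these values was not tested. Xirp1 spanned 0.94 units in TAC (adjusted p = 0.0217), and its r with Myh7 was 0.03. In SHAM 4 of the 27 passed, Ankrd1, Ccn2, Hspb1 and Rcan1. The spread test passed for 3, all wider in TAC: Fhl1, a mechanosensor of the sarcomere, at an SD of 0.353 in TAC and 0.117 in SHAM, Rcan1, a feedback inhibitor of calcineurin, at 0.599 and 0.135, and Ccn2, a matrix-associated growth factor, at 0.580 and 0.239 (adjusted p = 0.00982, 0.0248 and 0.0303). The median log2 ratio of SDs was 0.52 over the 27 genes and 0.29 over all genes.

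The natriuretic peptide pathway had 10 measured genes besides Nppb. None passed the time course in TAC or in SHAM by limma (2 in TAC and 6 in SHAM at an unadjusted p under 0.05). Corin, the protease that cuts the atrial peptide precursor, passed the spread test, with an SD of 0.245 in TAC and 0.0871 in SHAM (adjusted p = 0.0313), and the median log2 ratio of SDs was 0.61. In SHAM the 24-h cosine passed for 4 of them, Nppc, Npr3, Mme and Prkg1. Nppa, also among the atrial markers, had r = 0.79 with Myh7 in TAC and an SD of 0.241 in TAC and 0.382 in SHAM.

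Of 34 regulators of the programme, 6 passed the time course in SHAM: Gata4, Mef2c, Srf, Nkx2-5, Thra and Klf15. None of the 34 passed in TAC by limma (6 at an unadjusted p under 0.05). The SHAM cosine of Srf, which encodes serum response factor, peaked at ZT 21.5 ± 0.48 h, that of Gata4 at ZT 0.423 ± 0.64 h, and that of Klf15, which encodes a clock-linked repressor of growth genes, at ZT 11.6 ± 0.59 h (SE). Hopx, a homeodomain protein without DNA binding that restrains serum response factor, passed the spread test, with an SD of 0.208 in TAC and 0.0666 in SHAM (adjusted p = 0.0224), and had r = -0.85 with Myh7 in TAC. The list's median log2 ratio of SDs was 0.54.

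Of 16 adult sarcomere genes, none passed the time course in TAC by limma (2 at an unadjusted p under 0.05) and 2 did in SHAM, Tcap, which encodes the titin cap, and Lmod2, which encodes a nucleator of thin filaments. Tcap was 0.72 ± 0.09 and -0.72 ± 0.11 at its highest and lowest SHAM times (SD, n = 3 each; adjusted p = 4.9e-07). The spread test passed for 1 of them, Cmya5, with an SD of 0.153 in TAC and 0.0643 in SHAM (adjusted p = 0.0475), and the list's median log2 ratio of SDs was 0.15. Of 19 calcineurin and kinase genes, none passed the time course in TAC by limma (3 at an unadjusted p under 0.05) and 4 did in SHAM, Prkd1, Akt1, Adra1b and Rcan1, and Rcan1 alone passed the spread test. Of 13 calcium handling genes, Sln, an atrial inhibitor of the sarcoplasmic calcium pump and another of the atrial markers, passed in TAC (adjusted p = 0.0217), none passed in SHAM by limma (3 at an unadjusted p under 0.05), and none passed the spread test (3 at an unadjusted p under 0.05). Hrc, the histidine-rich calcium-binding protein of the sarcoplasmic reticulum, had r = -0.87 with Myh7 in TAC. With 1 value per group, no gene of these lists passed the spread test by limma.

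Array medians lay between -0.0358 and 0.0275 over the 36 arrays. The SD over all probe sets of an array was 0.0947 to 0.232 in TAC and 0.0967 to 0.261 in SHAM. The mean of the airway epithelium markers was above 1 in TAC ZT23 replicate 1 (1.22), and that of the thymocyte markers in SHAM ZT11 replicate 3 (2.08). Airway means of 0.943 in TAC ZT03 replicate 3 and 0.764 in SHAM ZT23 replicate 3 also stood apart from the rest, which were at most 0.140. Without the arrays above 1 the correlation of Myh7 and Nppb values in TAC was 0.54 (permutation test, adjusted p = 0.0829) and the SHAM cosine of Nppb had an adjusted p of 0.0612. Without all 4, chosen after seeing the data, Myh7 and Nppb in TAC had r = 0.53 for values (adjusted p = 0.105) and 0.80 for deviations (0.132), the SHAM cosine of Nppb did not pass (0.0772), and the spread of Myh7 still passed by limma. No list of markers showed the level of any cell type, since each probe set is centred.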

How the data were processed

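Left ventricular RNA of 36 mice was measured on single-channel Affymetrix arrays with 22690 probe sets. The deposited values are relative log2 values, as far as the values show: the authors centred each probe set on its median within TAC and within SHAM (medians within 1e-06 of 0), and no source used here states the log base or how probes were summarised and normalized. If the base is not 2, folds change and tests do not. No detection call or signal level was available, so no filter on level was possible, and the number of arrays limits the precision.

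Probe sets were named through GEO's platform annotation: 20380 had 1 gene symbol, 691 several, 1555 were not named and 64 were controls; 20351 of the named ones were matched through Entrez IDs. Probe sets of a gene were averaged (12393 genes, 4956 with several probe sets), and each was also tested by itself. Time course, 24-h cosine, their difference between surgeries and the absolute deviations from group means were tested over all genes (limma 3.58.1, R 4.3.3), with Benjamini-Hochberg adjustment and a threshold of 0.05. Correlations were tested two-sided with 100000 permutations (scipy 1.17.1), over the arrays or, for deviations, within times; they were adjusted over 12 relations between members, 42 between probe sets and 120 with marker means. The tests were checked on simulated data.

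The members, gene lists and markers were chosen with earlier results of these data known. The other genes named are, by a rule, the 5 most and 3 least correlated with each member in TAC and the 3 most correlated in SHAM, and up to 3 genes per list and test with the smallest p; the other list genes are those that passed. The 3 mice of a group are separate animals per the labels. Shared replicate numbers were not taken to pair the samples, since no label says so. Deviations of same-numbered pairs correlated above 0.1 in 8 of 45 cases in TAC and 22 of 45 in SHAM (medians -0.01 and 0.096), against 26 of 90 in TAC and 11 of 90 in SHAM for different numbers (0.013 and -0.05). In SHAM, same-numbered arrays were thus more alike, and what they shared was not tested. Fits with the replicate number as a block are given below. Alternatives were normalization, choice of probe set, array and surgery weights, robust fitting, covariates and left-out arrays.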

Additional observations from a re-analysis of the deposited data

How the results depend on the processing

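As reported, the time course was called for 68 genes in TAC and 705 in SHAM, and the 24-h rhythm for 142 and 1166. The differences between surgeries were called for 2 and 6 genes, and the spread for 199. The depth of signal over background is unknown, and the cause of the changes below was not tested.

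With quantile normalization the TAC counts were 112 for the time course and 276 for the rhythm, the differences 10 and 11, and the spread 71. The log2 ratio of SDs turned to -0.44 for Acta1 and -0.52 for Nppb. No pair of members passed, 0 in TAC and 0 in SHAM (permutation tests, with 2 each at an unadjusted p under 0.05). Here r was 0.52 for Myh7 and Acta1 and 0.50 for Myh7 and Nppb in TAC, and -0.61 for Myh6 and Nppb in SHAM. That of the deviations of Myh6 and Acta1 in TAC turned to -0.043. Array weights gave 6093 and 3576 genes for the time course in TAC and SHAM, 2019 and 3261 for the rhythm, 2005 and 413 for the differences and 569 for the spread. The estimate of these weights stopped before it converged on the TAC arrays and on both surgeries together, with weights of 0.318 to 6.06 in TAC. With them Myh7 (adjusted p = 2.63e-04), Myh6 (0.00342) and Nppb (0.00535) passed the time course in TAC and its difference between surgeries (3.54e-04, 0.00162 and 0.0114). In SHAM, where the estimate converged, Myh6 passed for the time course (0.00491) and the rhythm (0.0109). With both surgeries in 1 fit the counts were 652 and 418 for the time course and 539 and 692 for the rhythm in TAC and SHAM. In SHAM, Myh7 then missed the threshold for its time course (span 0.44) and its rhythm (amplitude 0.179), and Nppb for its rhythm (0.434).

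With the atrial and adipocyte covariates the SHAM time course was called for 334 genes, and the rhythm for 56 in TAC and 761 in SHAM. In SHAM, Myh7 missed the threshold for its time course (0.438) and its rhythm (0.153), and so did Nppb (1.09 and 0.321). With the activated fibroblast covariate, added after seeing the data, the TAC rhythm was called for 245 genes, Nppb in TAC passed for its rhythm (0.334), and the SHAM time courses of Myh7 (0.438) and Nppb (1.09) and the rhythm of Nppb (0.3214) did not pass. Robust fitting gave 3 genes for the difference in rhythm and left Nppb in SHAM short of the threshold for its time course (1.088) and its rhythm (0.434).

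Without the arrays with thymocyte or airway markers above 1, the difference in time course was called for 4 genes and the spread for 376. The rhythm of Nppb in SHAM (0.398) and the correlation of Myh7 and Nppb in TAC (0.54) did not pass, which left 1 pair in TAC. Without the 4 arrays above 0.5, added after seeing the data, the difference in time course was called for 17 genes, the log2 ratio of SDs of Nppb turned to -0.041, and the rhythm of Nppb in SHAM (0.419) did not pass. In TAC, 1 pair passed, Myh7 and Nppb not (r = 0.53 for values and 0.80 for deviations), and the difference in r of Acta1 and Nppb, TAC minus SHAM, turned to -0.012. The difference in time course was called for 1 gene with the probe set of largest SD, for 1 with each probe set by itself, for 20 among genes above the median SD, and for 12 with a weight per surgery. Squared deviations called 0 genes for the spread by limma (2093 at an unadjusted p under 0.05), and Myh7 (2.63) did not pass (adjusted p = 0.186). With 1 value per group, added after seeing the data, 2 were called, and Myh7 (2.63) did not pass.

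With the replicate number as a block the difference in rhythm was called for 2 genes and the spread for 1004, and the difference in r of Myh7 and Acta1 between TAC and SHAM turned to -0.0095. The block changed no other call of a member.

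The Myh6 probe sets were set against the members by themselves after seeing the data. With 1448826_at, 5 pairs passed in TAC, and r of Myh6 and Acta1 turned to -0.54 for values and -0.53 for deviations in TAC, and to 0.17 and 0.39 in SHAM. That of the deviations of Myh7 and Myh6 in SHAM turned to -0.22. The difference in r of Myh6 and Acta1 between TAC and SHAM turned to -0.92, which was the 1 difference that passed (permutation test, adjusted p = 0.0488). With 1417729_at, which is also the Myh6 probe set of largest SD, 0 pairs passed in SHAM (permutation test, 2 at an unadjusted p under 0.05) and r of Myh6 and Nppb was -0.53.

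Leaving out 1 array, or all arrays of 1 replicate number, gave 1 to 128 genes for the time course in TAC and 102 to 1097 in SHAM, and 14 to 203 and 284 to 1470 for the rhythm. The differences ranged over 0 to 30 and 0 to 8 genes, and the spread over 138 to 853. In SHAM the span of Myh7 was 0.41 to 0.56 and its amplitude 0.136 to 0.237, and those of Nppb were 0.97 to 1.27 and 0.371 to 0.524. The log2 ratio of SDs was 2.30 to 2.97 for Myh7, -0.20 to 1.01 for Acta1 and -0.56 to 0.84 for Nppb. Myh7 passed the spread test in all of these but the one without replicate 3 (limma, adjusted p = 0.0620). From 0 to 2 pairs passed in TAC and 0 to 2 in SHAM.

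Over these left-out arrays, r of values in TAC was 0.42 to 0.74 for Myh7 and Acta1, 0.51 to 0.68 for Myh7 and Nppb, and -0.23 to 0.32 for Myh6 and Acta1. In SHAM it was -0.15 to 0.22 for Myh7 and Acta1 and -0.75 to -0.57 for Myh6 and Nppb. For deviations in TAC it was -0.87 to 0.36 for Myh7 and Myh6, 0.53 to 0.92 for Myh7 and Nppb, and -0.23 to 0.76 for Myh6 and Acta1. For deviations in SHAM it was -0.014 to 0.74 for Myh7 and Acta1, -0.71 to 0.0050 for Myh6 and Acta1, and -0.39 to 0.71 for Acta1 and Nppb. The difference in r, TAC minus SHAM, was -1.48 to 0.30 for Myh7 and Myh6, -0.082 to 0.81 for Myh7 and Acta1, -0.41 to 0.63 for Myh7 and Nppb, -0.19 to 1.13 for Myh6 and Acta1, and -0.33 to 1.20 for Acta1 and Nppb, with 0 to 4 pairs passing.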
